A study of Mus musculus with 22 samples.

Results

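Primed regions are stretches of mouse liver chromatin that carry histone H3 monomethylated at lysine 4 (H3K4me1) in a called peak and no called peak of H3 acetylated at lysine 27 (H3K27ac) or trimethylated at lysine 4 (H3K4me3). They were found by position, as rows of the authors' H3K4me1 union table that shared no base with a row of their H3K27ac union table or with an H3K4me3 peak of chow livers. Of 16834 H3K4me1 regions, 6434 (38.2%) met this rule. The others were 4197 acetylated distal regions (H3K27ac peak, no H3K4me3 peak), 3614 regions with both kinds of peak and 2589 with an H3K4me3 peak and no H3K27ac peak.

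H3K4me1 is laid down at enhancers by the methyltransferases Mll3 and Mll2 (now Kmt2c and Kmt2d), often after a pioneer factor such as a Foxa protein has opened the site. H3K27ac, written by the acetyltransferases p300 and CBP, is the usual mark of an enhancer in use, and H3K4me3 marks promoters. An enhancer with H3K4me1 alone is called primed: it is known in liver and other tissues as a site that can be acetylated later, after a hormonal, dietary or developmental signal, and some such sites are enhancers that have been switched off.

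The livers came from wild-type C57BL/6J mice. Mice of the high-fat-diet (HFD) group were moved to the S3282 diet when 8 weeks old and stayed on it for 16 weeks, while the chow group ate Prolab Isopro RMH 3000. All were fasted overnight and killed when 24 weeks old, and libraries were made from aliquots of pulverized whole liver, so all cell types of the organ are mixed and more cells of a type cannot be told apart from more signal per cell. H3K4me1, H3K27ac and mRNA each had 3 HFD and 3 chow libraries. H3K4me3 had 2 chow libraries and no HFD library, and an IgG control was pooled for each diet. The labels name no animal behind a replicate, so the p-values measure the spread between these libraries only.

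The absence of H3K27ac here means that no peak passed the authors' limits. Their peak lists kept 6852 H3K27ac peaks in HFD livers and set 46968 candidates aside, against 9651 kept and 51854 set aside in chow livers. H3K27ac reads were not counted at the primed regions in the files used here, so acetylation under the limit cannot be told apart from none. A promoter that carried H3K4me3 on the HFD alone would also be among the members. The rule says nothing of enhancer activity, and the term primed is used for the combination of peaks only. Hepatocyte identity of the tissue was plain in the mRNA: the 8 hepatocyte markers (among them Alb, Ttr and Hnf4a) summed, as counts scaled to the library total (CPM), to between 80386 and 101604 CPM in HFD livers and between 85597 and 93144 CPM in chow livers. Most of each sum was Alb, at 62389 to 78708 CPM in HFD livers and 62023 to 69883 CPM in chow livers. The sums therefore say little of the other markers. Of the 8 markers 2 rose and 2 fell on the HFD (50.0%, against 35.6% of all genes, edgeR adjusted p under 0.05).

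Total H3K4me1 counts in the table were 5487592, 6931725 and 6492247 in the HFD libraries and 6716264, 7380206 and 5969153 in the chow libraries. Over the primed regions, pairs of HFD libraries were less alike than pairs of chow libraries. Their log2 levels correlated at 0.950 to 0.972 within HFD and at 0.977 to 0.981 within chow. The median standard deviation (SD) of a member's log2 level was 0.15 over the HFD libraries and 0.11 over the chow libraries, and 65.5% of members varied more on the HFD. HFD replicate 1 was the library farthest from the middle one at 2958 members (46.0%), against 1766 for HFD replicate 2 and 1710 for HFD replicate 3. Results that rest on single libraries are given with and without them.

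The primed regions were narrower than the other classes. The rule itself favours narrow members, since a wider region is more likely to touch another peak. The median width of the members was 2502.5 bases, with quartiles of 1740 and 3721 bases and a full range of 444 to 24323 bases. Acetylated distal regions had a median width of 3502 bases, regions with both other marks 3937.5 bases, and H3K4me3 regions without H3K27ac 2890 bases. The members covered 19.9 Mb. Of the H3K4me1 counts within called H3K4me1 regions they held 27.6, 27.8 and 27.6% in the 3 HFD libraries and 27.2, 27.1 and 27.8% in the 3 chow libraries. The diets overlapped in this share, which leaves out reads outside the called regions.

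Per base, H3K4me1 was about as dense at primed as at acetylated distal regions. The median level of a primed region was 13.1, 13.5 and 13.3 CPM per kb in the HFD libraries and 13.0, 12.9 and 13.4 CPM per kb in the chow libraries. At acetylated distal regions it was 13.2, 14.8 and 14.01 CPM per kb in the HFD libraries and 13.1, 13.1 and 13.6 CPM per kb in the chow libraries. The level at primed regions, divided by that at acetylated distal regions of the same library, averaged 0.951 ± 0.0422 in HFD livers and 0.988 ± 0.00409 in chow livers (SD, n = 3 each). The ratio was lowest in HFD replicate 2, at 0.910, and the HFD and chow values overlapped, since HFD replicate 1 stood at 0.994 and the chow libraries ran from 0.985 to 0.993. H3K4me3 regions without H3K27ac stood above both enhancer classes in every chow library, with medians of 16.8, 14.7 and 15.8 CPM per kb in the HFD libraries and 17.5, 17.3 and 16.5 CPM per kb in the chow libraries.

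**Figure D1:**
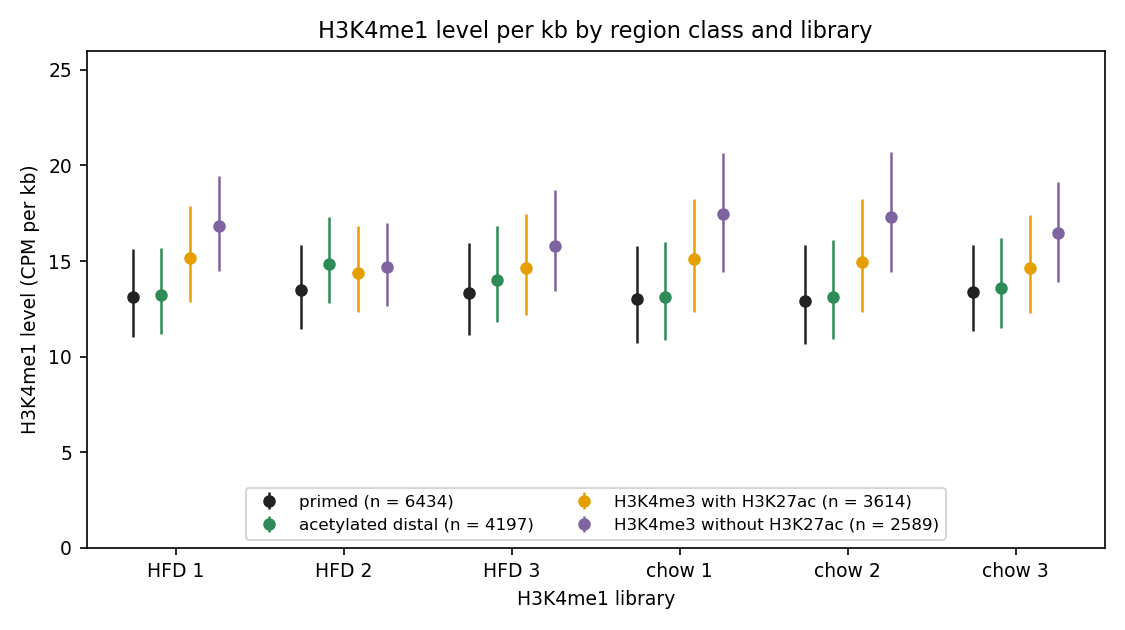
H3K4me1 level (CPM per kb) in each of the 6 libraries for 4 classes of H3K4me1 region, points being medians over regions and bars the quartiles. Primed regions stayed between 12.9 and 13.5 CPM per kb in all 6 libraries, while acetylated distal regions reached 14.8 CPM per kb in HFD replicate 2.

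Enrichment over the local background, as the authors' peak caller gave it on pooled replicates, had a median of 9.97 at the 2667 members with an HFD peak and 10.4 at the 5504 members with a chow peak. Acetylated distal regions had 10.8 in the HFD list and 11.8 in the chow list, and H3K4me3 regions without H3K27ac had 7.78 in the HFD list and 7.58 in the chow list. The primed regions thus lay between those classes on this scale in both lists.

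The 6 members densest in H3K4me1 differed little between diets. The highest, chr14:70080932-70083620 (mm9, as are all positions here), had 83.3, 92.0 and 95.6 CPM in HFD livers and 93.8, 89.9 and 86.7 CPM in chow livers, a mean density of 33.6 CPM per kb over the 6 libraries. The diets overlapped there. Next came chr2:181026255-181027854 with 33.1 CPM per kb and chr2:27545672-27561225 with 32.5 CPM per kb. The region chr2:27545672-27561225 spans 15.6 kb, ends 206 bases from an H3K27ac peak and had a peak in the chow list only, although its levels overlapped between diets: 474, 484 and 532 CPM in HFD livers and 515, 532 and 496 CPM in chow livers. The other 3, chr14:63502885-63504618, chr15:41624855-41625381 and chr7:148106747-148110571, had between 28.3 and 30.6 CPM per kb. None of the 6 passed the test for diet (edgeR adjusted p from 0.191 to 0.990).

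The 3 widest members were long tracts of H3K4me1. The widest, chr4:45454603-45478926, covers 24.3 kb and had 483, 523 and 527 CPM in HFD livers against 535, 533 and 537 CPM in chow livers. Its diets did not overlap, but the difference was small (log2 fold change -0.07 ± 0.06 SE, edgeR adjusted p = 0.573). At chr11:113582882-113606042 the means were 523 ± 45.9 CPM in HFD livers and 570 ± 5.82 CPM in chow livers (SD, n = 3 each; adjusted p = 0.285). At chr5:125595659-125616298 they were 392 ± 6.82 CPM in HFD livers and 442 ± 8.13 CPM in chow livers (SD, n = 3 each; adjusted p = 0.123). These 3 lay 24.7, 0.677 and 0.161 kb from the nearest H3K27ac peak, so 2 of the 3 widest tracts continued almost to acetylated chromatin.

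Most members were far from acetylated chromatin. The median gap to the nearest H3K27ac peak was 17790.5 bases, with quartiles of 5049.5 and 53793.8 bases, and the median gap to the nearest chow H3K4me3 peak was 22302 bases. A gap under 1 kb to H3K27ac was seen at 642 members (9.98%), and 876 (13.6%) were over 100 kb away. At least 5 kb from both kinds of peak stood 4498 members (69.9%). Density changed little with this distance: the median was 13.4 CPM per kb under 1 kb from H3K27ac and 13.2 CPM per kb beyond 100 kb.

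The edge of the rule was sharp in position only. The 3 members nearest to an H3K27ac peak, chr9:61213360-61218191, chr16:91356960-91358682 and chr1:87691529-87693649, lay 1, 2 and 3 bases from it. The 3 regions left out with the smallest overlap, chr6:85859957-85862560, chr11:87499384-87502844 and chr19:6293487-6302095, shared 2, 3 and 4 bases with one. The H3K27ac peak beside chr9:61213360-61218191 had 202, 152 and 177 CPM in HFD livers and 122, 142 and 127 CPM in chow livers. It rose on the HFD (log2 fold change 0.43 ± 0.10 SE, edgeR adjusted p = 0.0179), a call lost without HFD replicate 3, chow replicate 1 or chow replicate 3, at adjusted p from 0.0943 to 0.156. The member itself averaged 92.9 ± 8.47 CPM in HFD livers and 78.9 ± 2.23 CPM in chow livers (SD, n = 3 each) and did not pass (adjusted p = 0.175).

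Some primed regions lay close together, and the median gap to the nearest other member was 25009.5 bases. Whether members lie closer together than other H3K4me1 regions was not tested. Another member lay within 10 kb of 2191 members (34.1%), and 233 chains of 3 or more, linked by gaps of at most 10 kb, held 873 members. The longest chains had 9 members each: one ran over 70.5 kb, from 5020488 to 5091022 on chromosome 17, and the other over 48.1 kb, from 52100341 to 52148466 on chromosome 3. Log2 fold changes in the chromosome 17 chain ran from -0.31 to 0.19 and in the chromosome 3 chain from -0.18 to 0.10, and 0 of their 18 members passed the test for diet by edgeR or by DESeq2, with 1 at an unadjusted p under 0.05.

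Chromosomes differed in the primed share of their H3K4me1 regions. On the X chromosome 29 of 118 regions were primed (24.6%). Autosomes ran from 32.1% on chromosome 7 to 42.7% on chromosome 14.

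The diet comparison asks whether 16 weeks on the HFD changed H3K4me1 at primed chromatin. All 6434 members had enough counts to be tested. H3K4me1 rose at 55 members and fell at 71, together 126 members (1.96%), against 1.56% of all 16834 regions tested (edgeR's quasi-likelihood test, Benjamini-Hochberg adjusted p under 0.05). In each direction, 0.855% of members rose, against 0.683% of all regions, and 1.10% fell, against 0.879% of all regions. These shares are near those of the whole table. At an unadjusted p under 0.05 there were 1128 members (17.5%), against 17.9% of all regions. The median log2 fold change over the members was 0.03, and over all regions 0.01.

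The other classes of region had other mixes of calls. Among acetylated distal regions 46 rose and 15 fell (1.45% called, against 1.56% of all regions), with a median log2 fold change of 0.08. Of the regions with an H3K4me3 peak and no H3K27ac peak 0 rose and 37 fell by edgeR (1.43% called), with a median of -0.11. DESeq2 gave 0 and 26, and 55 were higher at an unadjusted p under 0.05. Regions with both an H3K4me3 and an H3K27ac peak had 14 rises and 25 falls (1.08% called), with a median of -0.02. Both directions were present there, as they were at primed regions. The class counts are descriptions, and the differences between classes were not tested.

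The differences were small in size. Over 1.5-fold in either direction were 47 members (0.730%), against 0.404% of all regions, and 1 member changed more than 2-fold. The 3 HFD libraries lay all above the 3 chow libraries at 761 members (11.8%) and all below them at 627 (9.75%), against 11.0% and 11.0% of all regions. Groups that do not overlap made up 21.6% of members and 22.0% of all regions, so they were no more common at primed regions.

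**Figure D2:**
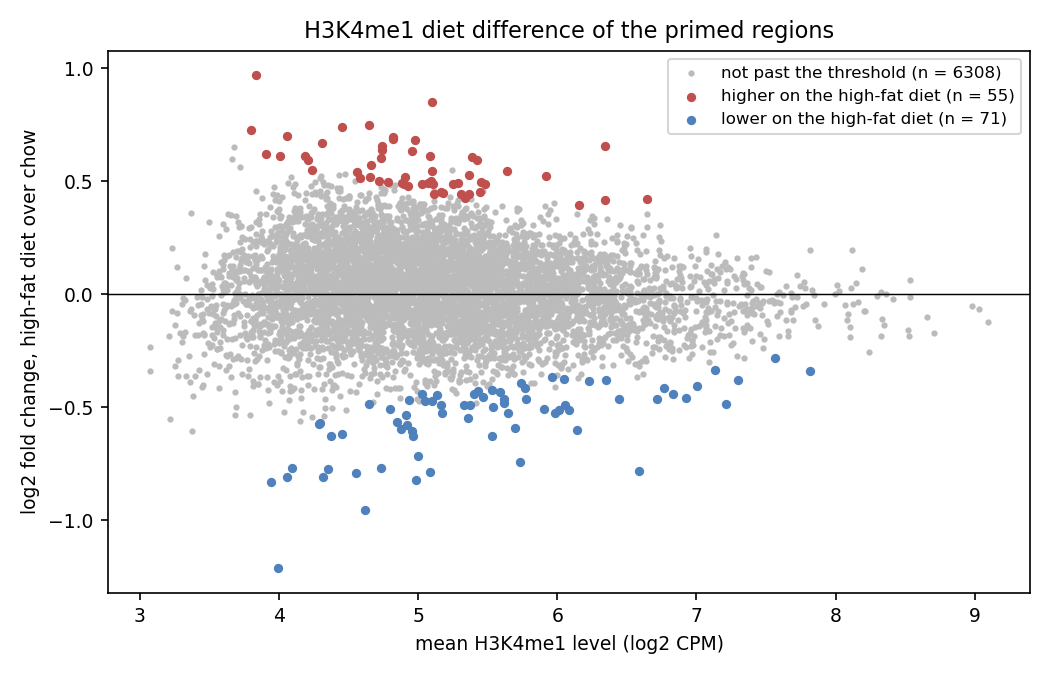
Log2 fold change in H3K4me1 (HFD over chow) against mean level (log2 CPM) for the 6434 primed regions, one point each. The 55 regions that rose and the 71 that fell sit at the edges of a cloud centred near 0, and 1 fall passes a log2 change of -1.

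The counts depend on single libraries. Without HFD replicate 1, the library that stood farthest from the rest, 332 members rose and 318 fell. These held all 126 of the calls above. Over all 16834 regions 2036 then passed, a larger share than among the 6434 members. Leaving out any other library lowered the count of members called. It was 15 up and 35 down without HFD replicate 2 (79 calls over all regions) and 45 and 65 without HFD replicate 3 (268). It was 8 and 26 without chow replicate 1 (47 calls over all regions). It was 7 and 16 without chow replicate 2 (34) and 11 and 24 without chow replicate 3 (65). DESeq2 gave 29 up and 57 down, with 178 calls over all regions. The ratio of falls to rises was larger under DESeq2 than over all 6 libraries by edgeR. So it was without HFD replicate 2, HFD replicate 3 or any 1 chow library. It was smaller without HFD replicate 1 and with plain library totals in place of TMM, which gave 65 rises and 64 falls.

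In chow livers, members that rose had less H3K4me1 per kb than the typical member, and members that fell had more. Over all members the chow medians were 13.0, 12.9 and 13.4 CPM per kb. The lower quartiles were 10.7, 10.7 and 11.3 CPM per kb, and the upper quartile was 15.8 CPM per kb in each chow library. The 55 that rose had a median density of 12.2 CPM per kb in HFD livers and 8.65 CPM per kb in chow livers. The 71 that fell had 10.7 CPM per kb in HFD livers and 15.6 CPM per kb in chow livers. This describes regions chosen for their difference and has no test. The median absolute log2 change was 0.53 among rises (0.40 to 0.97) and 0.50 among falls (0.28 to 1.21). The HFD and chow libraries were fully apart at all 55 rises and at 70 of the 71 falls.

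The largest rise was at chr9:103149847-103151433, a 1.59 kb region on chromosome 9. It had 15.3, 23.3 and 16.7 CPM in HFD livers and 11.2, 9.57 and 7.53 CPM in chow livers. Every HFD library was above every chow library. The means of 18.4 ± 4.28 CPM in HFD livers and 9.44 ± 1.85 CPM in chow livers (SD, n = 3 each) gave a log2 fold change of 0.97 ± 0.18 (SE), or 1.96-fold higher, with an adjusted p of 0.00636. The nearest H3K27ac peak, 4.57 kb away, did not pass (log2 0.01, edgeR adjusted p = 0.989). The call was lost without HFD replicate 2 and without chow replicate 3.

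At chr7:52907915-52910680 the HFD livers had 38.6, 45.2 and 47.6 CPM and the chow livers 24.4, 27.6 and 20.8 CPM. The groups were well apart, and the region rose 1.80-fold (log2 0.85 ± 0.13 SE, edgeR adjusted p = 0.000464). It is 2.77 kb long and 34.4 kb from the nearest H3K27ac peak.

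The broadest of the large rises was chr4:138432363-138440458, 8.10 kb long. Its levels were 95.9, 92.1 and 109 CPM in HFD livers and 62.4, 59.6 and 66.6 CPM in chow livers, with no overlap and the same adjusted p (log2 0.66 ± 0.10 SE, edgeR adjusted p = 0.000464). The chr7 and chr4 rises passed the test under each alternative run, among them the omission of each library in turn.

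The other 9 of the 12 largest rises had log2 fold changes between 0.64 and 0.75. On chromosome 13, chr13:35873621-35876442 averaged 31.2 ± 4.43 CPM in HFD livers and 18.6 ± 3.13 CPM in chow livers, and chr13:113182182-113184007 averaged 20.3 ± 0.798 CPM in HFD livers and 12.5 ± 1.47 CPM in chow livers (SD, n = 3 each). On chromosome 16, chr16:55830506-55834289 averaged 34.4 ± 8.17 CPM in HFD livers and 21.5 ± 2.86 CPM in chow livers, and chr16:24503909-24506001 averaged 24.2 ± 4.46 CPM in HFD livers and 15.1 ± 0.700 CPM in chow livers (SD, n = 3 each). The narrowest was chr4:9037010-9037880 at 0.870 kb, and the most isolated was chr3:68584209-68586697, which lies 185 kb from the nearest H3K27ac peak and 221 kb from the nearest H3K4me3 peak. The remaining 3 were chr6:115426224-115428271, chr7:117965844-117969016 and chr17:43250122-43252536. All 12 had a peak in the HFD list, and 2 of them also in the chow list. Each of these 9 lost its call without at least 1 library.

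The largest fall was at chr3:94486029-94487836, a 1.81 kb region that ends 471 bases from a chow H3K4me3 peak. It had 9.10, 11.7 and 7.07 CPM in HFD livers and 17.7, 24.7 and 22.6 CPM in chow livers. The HFD libraries were all lower. H3K4me1 fell to 9.30 ± 2.34 CPM in HFD livers, against 21.7 ± 3.63 CPM in chow livers (SD, n = 3 each), which is 2.32-fold lower (log2 -1.21 ± 0.18 SE, edgeR adjusted p = 0.000464). It was the only member past a 2-fold change.

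The fall with the lowest adjusted p was at chr5:121144084-121151999, which is 7.92 kb long and 79.4 kb from any H3K27ac peak. Its levels were 75.7, 70.7 and 64.5 CPM in HFD livers and 125, 114 and 124 CPM in chow livers. The spread within each diet was small beside the gap between diets, and the region was 1.72-fold lower on the HFD (log2 -0.78 ± 0.09 SE, edgeR adjusted p = 2.87e-05). In chow livers the peak had 6.63-fold enrichment in the authors' peak list, and the HFD list held none there.

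At chr8:128882667-128885090 the HFD livers had 13.5, 16.2 and 19.5 CPM and the chow livers 34.1, 26.9 and 35.1 CPM, without overlap (log2 -0.96 ± 0.15 SE, edgeR adjusted p = 0.000726). At chr6:50752584-50755267 they had 18.6, 27.3 and 21.2 CPM on the HFD and 43.5, 37.7 and 38.5 CPM on chow (log2 -0.82 ± 0.13 SE, adjusted p = 0.00122). Both regions were over 60 kb from H3K27ac.

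On chromosome 13 were 3 of the 12 largest falls: chr13:24246604-24249099, chr13:57518967-57520880 and chr13:56396192-56398657, with log2 fold changes of -0.81, -0.79 and -0.79. The second of these lay 645 kb from the nearest H3K27ac peak and 647 kb from the nearest H3K4me3 peak, the largest gaps among the named regions. The other 5 were chr14:75194293-75195782, chr16:95361438-95364058, chr8:111453579-111455246, chr6:72049989-72051738 and chr8:26639094-26640303, with log2 fold changes from -0.83 to -0.77 (edgeR adjusted p from 0.00367 to 0.00741). All 12 falls had a peak in the chow list only. The calls at 5 of them, chr16:95361438-95364058, chr13:57518967-57520880, chr13:56396192-56398657, chr8:111453579-111455246 and chr8:26639094-26640303, were lost without 1 or 2 of the libraries left out in turn.

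**Figure D3:**
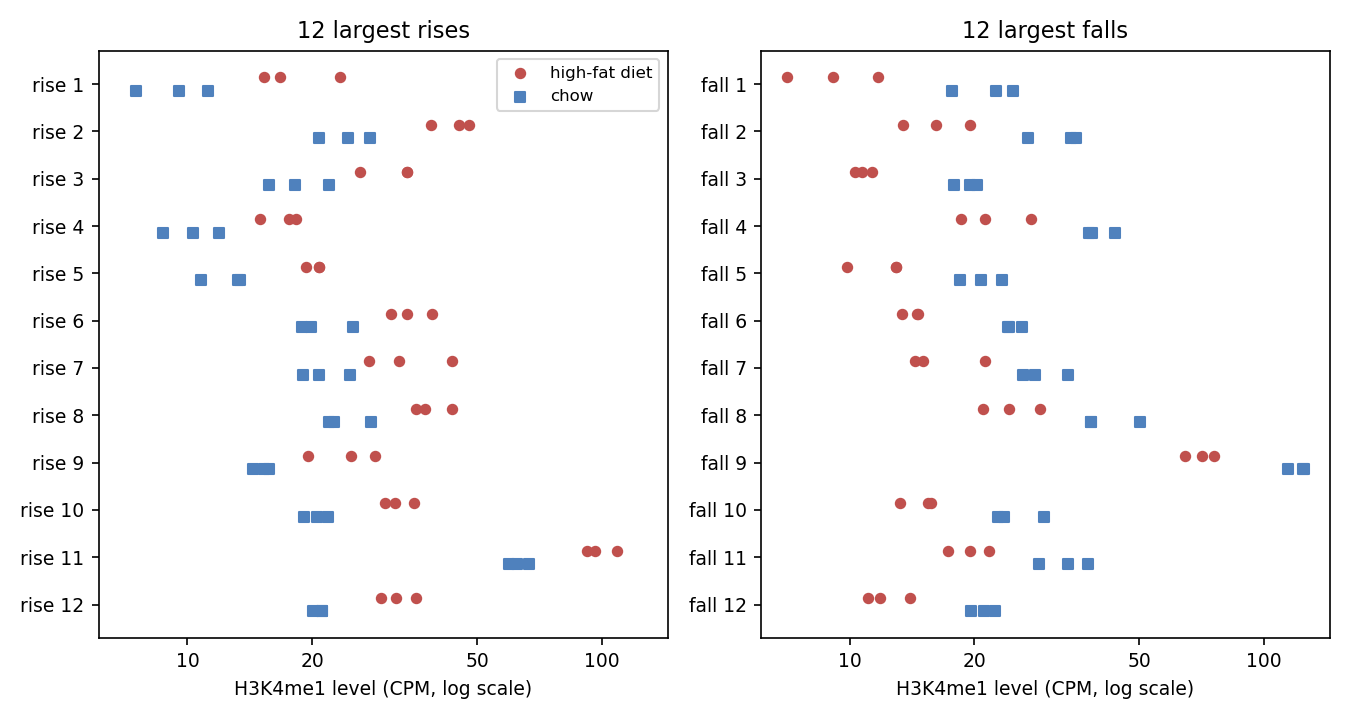
H3K4me1 level (CPM, log scale) of the 12 largest rises (left) and 12 largest falls (right) in each library, HFD as circles and chow as squares, in order of log2 fold change. In each region shown the 3 HFD libraries lie on one side of the 3 chow libraries, which was a condition for being shown.

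Of the 126 members past the test, 5 adjacent pairs lay within 150 kb of each other. Whether this is more or less than expected for members spaced as these are was not tested. On chromosome 5, chr5:115030620-115036397 and chr5:115037727-115050117 are 1.33 kb apart and both fell. The first had 49.7, 53.1 and 61.8 CPM in HFD livers and 83.0, 77.2 and 70.8 CPM in chow livers. The second had 218, 188 and 189 CPM in HFD livers and 245, 260 and 247 CPM in chow livers. Neither overlapped between diets (log2 -0.49 ± 0.10 and -0.34 ± 0.07 SE, edgeR adjusted p = 0.0134 and 0.0140), and both calls were lost without HFD replicate 2, chow replicate 1 or chow replicate 2, the second also without chow replicate 3.

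On chromosome 6, chr6:115426224-115428271 and chr6:115460148-115462629 both rose (log2 0.70 and 0.49), 31.9 kb apart. On chromosome 7, chr7:117965844-117969016 and chr7:118095703-118098873 both rose (log2 0.68 and 0.63), 127 kb apart. On chromosome 8, chr8:122915444-122919107 and chr8:122982255-122985292 both fell (log2 -0.42 and -0.42), 63.1 kb apart. One pair went in opposite directions: chr8:26639094-26640303 fell (log2 -0.77) and chr8:26729442-26733854, 89.1 kb away, rose (log2 0.42). Each of these calls was lost without at least 1 library, and those at chr6:115460148-115462629, chr8:122982255-122985292 and chr8:26729442-26733854 also by DESeq2 (adjusted p = 0.0514, 0.0557 and 0.0700). By chromosome, chromosome 5 had 1 rise and 12 falls among 424 members, against 55 rises and 71 falls among all 6434. The X chromosome had 0 calls among 29 by edgeR and by DESeq2, with 2 higher and 5 lower at an unadjusted p under 0.05. Differences between chromosomes were not tested.

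Most members whose peak was in the list of 1 diet had like counts in both diets. A peak in the chow list only was held by 3767 members (58.5%), in the HFD list only by 930 (14.5%), and in both by 1737. Among acetylated distal regions 56.7% were in both lists. The HFD list of H3K4me1 peaks was the shorter, with 8616 peaks kept against 15355 in chow livers. Of the members in the HFD list only, 70.4% differed by less than 1.2-fold between diets, and of those in the chow list only, 85.6%. The median log2 fold change was 0.14 in the HFD-only members, 0.06 in those in both lists and -0.02 in the chow-only members. The lists were called on the same reads as the counts, so these differences are not independent of them.

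**Figure D4:**
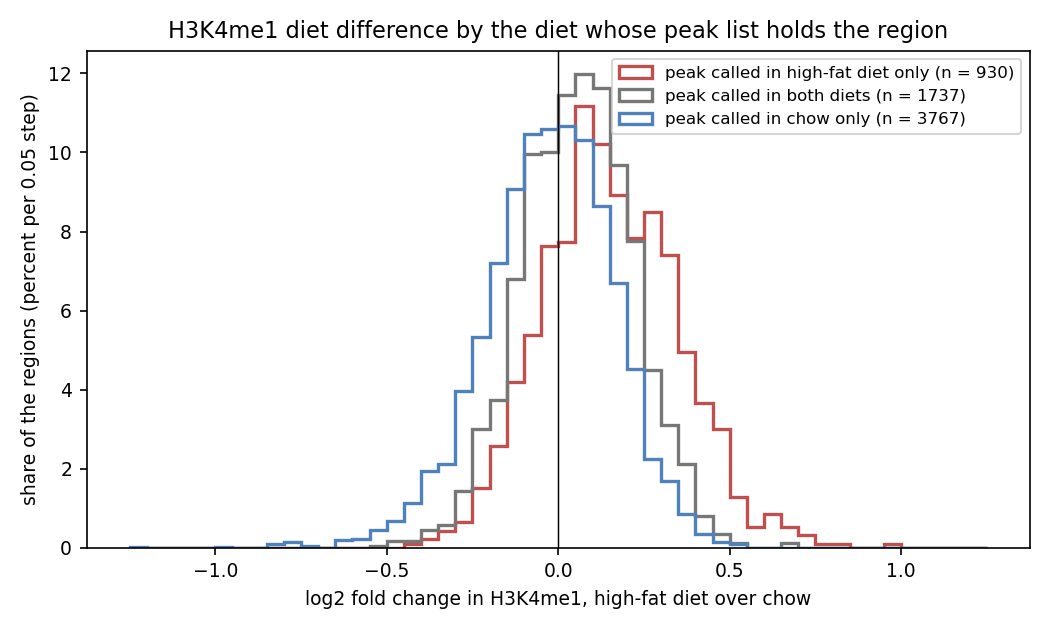
Distribution of the log2 fold change in H3K4me1 (HFD over chow, steps of 0.05) for members with a peak in the HFD list only, in both lists and in the chow list only. The 3 curves overlap over most of their range, with medians of 0.14, 0.06 and -0.02.

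HFD-only members supplied 39 of the 55 rises and 1 of the 71 falls, and chow-only members 4 of the rises and 63 of the falls. The exceptions can be named, as regions picked after their values were seen. The fall was chr10:79802258-79809109, with 130, 113 and 128 CPM in HFD livers and 155, 160 and 153 CPM in chow livers. It did not overlap between diets (log2 -0.34 ± 0.08 SE, edgeR adjusted p = 0.0309). The 4 rises were chr2:29827022-29829525, chr5:138594543-138595911, chr7:80568032-80570839 and chr9:14037811-14040131, with log2 fold changes of 0.50, 0.55, 0.53 and 0.48. The largest of these levels was at the chr7 region, with 41.9, 50.8 and 52.2 CPM in HFD livers and 31.7, 35.8 and 33.0 CPM in chow livers. Each of these 5 calls was lost without HFD replicate 2 and without any 1 chow library. The chr2, chr5 and chr9 rises were also lost by DESeq2 (adjusted p = 0.0633, 0.0793 and 0.0722).

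Width and distance went with the share of calls in a limited way. Of the 1608 narrowest members 0.808% were called, and of the 1611 widest 2.73%. By distance to H3K27ac, 6 rose and 3 fell under 1 kb (1.4% of 642 members), and 7 rose and 8 fell between 1 and 5 kb (1.57% of 956). Between 5 and 20 kb 9 rose and 22 fell (1.71% of 1808), between 20 and 100 kb 26 rose and 27 fell (2.46% of 2152), and beyond 100 kb 7 rose and 11 fell (2.05% of 876). The differences between these bins were not tested. Among the 4498 members at least 5 kb from both kinds of peak 37 rose and 55 fell, against 55 and 71 among all 6434.

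**Figure D5:**
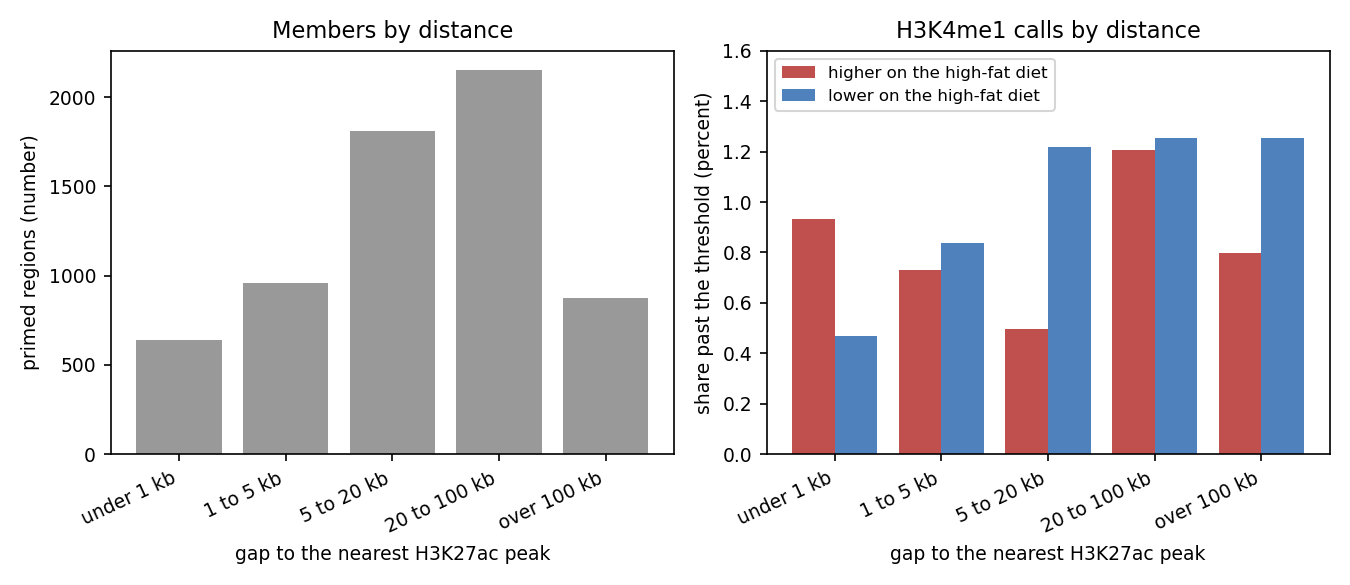
Left, number of primed regions by gap to the nearest H3K27ac peak; right, share of them (percent) whose H3K4me1 rose or fell on the HFD. The bins hold between 642 and 2152 members, and the bars on the right rest on 3 to 27 regions each.

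Acetylation next to primed regions was compared through the nearest H3K27ac peak within 100 kb. This linked 5558 members to 3555 peaks, of which 51 rose and 28 fell on the HFD (2.22%), against 1.91% of all 11235 H3K27ac peaks tested (1.2% up and 0.712% down; edgeR's quasi-likelihood test, adjusted p under 0.05). These counts ran from 8 to 102 up and from 6 to 55 down when each H3K27ac library was left out in turn: without HFD replicate 2 they were 102 and 55, and without chow replicate 1, 8 and 6. Near the members whose H3K4me1 rose lay 47 peaks, of which 1 rose and 0 fell, with a median log2 fold change of 0.01; DESeq2 also gave 0 falls, and 1 was lower at an unadjusted p under 0.05. Near the members whose H3K4me1 fell lay 59 peaks, of which 0 rose and 3 fell, with a median of -0.01; DESeq2 also gave 0 rises, and 1 was higher at an unadjusted p under 0.05. The called shares of these peaks, 2.13% near rises and 5.08% near falls, rest on 1 and 3 peaks and were not below the 1.91% of all H3K27ac peaks.

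The pairs in which both were called went the same way, 5 members with 4 peaks. The pair that rose was chr17:43250122-43252536 and an H3K27ac peak 21.1 kb from it. H3K4me1 there was 29.3, 35.6 and 31.8 CPM in HFD livers and 21.1, 20.1 and 21.1 CPM in chow livers. H3K27ac at the peak was 64.9, 51.2 and 56.0 CPM in HFD livers and 34.6, 35.9 and 34.8 CPM in chow livers. Neither mark overlapped between diets, and the log2 fold changes were 0.64 ± 0.13 for H3K4me1 and 0.69 ± 0.11 for H3K27ac (SE; edgeR adjusted p = 0.00790 and 0.00263). The H3K4me1 call was lost without HFD replicate 2, chow replicate 1 or chow replicate 2.

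The pairs that fell were on chromosomes 19, 5 and 8. At chr19:47410888-47414650 H3K4me1 was 63.7, 60.1 and 70.5 CPM in HFD livers and 85.7, 76.9 and 90.9 CPM in chow livers, and H3K27ac at a peak 28.7 kb away was 71.8, 88.8 and 105 CPM in HFD livers and 153, 132 and 145 CPM in chow livers. The groups were apart in both marks (log2 -0.38 ± 0.10 and -0.68 ± 0.10 SE, edgeR adjusted p = 0.0422 and 0.00109), and the H3K4me1 call was lost without HFD replicate 2 or any 1 chow library. The 2 neighbours on chromosome 5 described above share 1 H3K27ac peak, 20.7 kb from the nearer of them, which had 49.7, 59.7 and 53.7 CPM in HFD livers and 70.7, 78.5 and 89.5 CPM in chow livers (log2 -0.54 ± 0.10 SE, adjusted p = 0.00835). That call was lost without HFD replicate 3 or chow replicate 3. The H3K27ac peak 4.54 kb from chr8:26639094-26640303 had 58.5, 57.4 and 61.2 CPM in HFD livers and 83.6, 85.8 and 76.5 CPM in chow livers (log2 -0.46 ± 0.09 SE, adjusted p = 0.00932), a call lost without chow replicate 1.

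The authors' deposited table of H3K4me1 differences held 73 members higher and 108 lower on the HFD at an adjusted p under 0.05. Together these were 181 of 6434 members, against 413 of all 16834 regions (2.45%). Of the 126 calls made here, 121 (96.0%) were also past in that table, and these were 66.9% of its 181 calls at members. None was past in opposite directions.

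The mRNA of hepatocyte transcription factors moved unevenly, in a table where 35.6% of 12909 genes passed the test. Whether these factors bind the primed regions was not tested. Of 14 hepatocyte transcription factors 6 rose, 1 fell and 7 did not pass, with a median log2 fold change of 0.24. Cebpa, a regulator of hepatic glucose and lipid genes, had 482, 410 and 379 CPM in HFD livers and 294, 263 and 237 CPM in chow livers, and rose (log2 0.68 ± 0.12 SE, edgeR adjusted p = 0.00340). Rxra, the shared partner of many nuclear receptors, rose too (log2 0.49 ± 0.10 SE, adjusted p = 0.00593), and Nr1h4, the bile acid receptor FXR, fell (log2 -0.36 ± 0.09 SE, adjusted p = 0.0127). The rises of Onecut1, Cebpb and Nr1i2 were each lost without several of the libraries, and the number of factors that rose was 2 without HFD replicate 1, without HFD replicate 2, without chow replicate 2 and without chow replicate 3, and 3 without chow replicate 1. The pioneer factors Foxa1, Foxa2 and Foxa3 had log2 fold changes of 0.04, 0.58 and -0.20, and Hnf4a of -0.21 (edgeR adjusted p from 0.0887 to 0.876). Foxa2 did pass by DESeq2 (adjusted p = 0.0363), with plain library totals (0.0473) and without HFD replicate 3 (0.00773). Foxa3 and Hnf4a passed without HFD replicate 1 (adjusted p = 0.0407 and 0.0491).

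The enzymes of these marks were called about as often as other genes. Among 20 enzyme and cofactor genes there were 2 rises and 4 falls (30.0%, against 35.6% of all genes), and 14 stayed short of the threshold, with a median log2 fold change of -0.08. Mll3 had 45.5, 52.7 and 55.2 CPM in HFD livers and 48.6, 57.3 and 49.8 CPM in chow livers, and overlapped between diets (log2 -0.02 ± 0.10 SE, edgeR adjusted p = 0.899). Mll2 had a log2 fold change of 0.12, Ep300 (p300) of -0.07 and Crebbp (CBP) of 0.23, none past the test over all 6 libraries. Crebbp did pass without HFD replicate 1 (edgeR adjusted p = 0.0157). Kdm6a, a demethylase that sits in the same complex as Mll3 and Mll2, had 19.9, 18.9 and 19.1 CPM in HFD livers and 25.6, 27.3 and 28.3 CPM in chow livers, with no overlap, and fell (log2 -0.49 ± 0.08 SE, edgeR adjusted p = 0.00264). Kdm1b, a demethylase of H3K4me1, rose (log2 0.41). Setd1a, Kdm5a and Hdac2 also fell (log2 -0.38, -0.37 and -0.34), with each of these 3 calls lost without 3 or more of the libraries left out in turn, and Kdm5a was also lost with plain library totals (adjusted p = 0.136). The Kdm1b call was lost without chow replicate 2 or chow replicate 3.

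Markers of exocrine pancreas, a tissue that lies beside the liver, differed with diet in the mRNA libraries. The 8 markers summed to between 9.18 and 126 CPM in HFD livers and between 206 and 1248 CPM in chow livers, and all 6 that could be tested fell. Of these, 3 fell with plain library totals, 2 by DESeq2 and 2 to 6 with 1 library left out. Prss1 was near 0 in both diets, with 0 CPM in each HFD library and 0 to 0.158 CPM in the chow libraries, and was not tested. Sums for Kupffer cells were 228 to 437 CPM in HFD livers and 188 to 357 CPM in chow livers, and those of stellate cells 198 to 442 CPM in HFD livers and 307 to 317 CPM in chow livers, so both sums overlapped. Single markers differed all the same. Cd68, a lysosomal protein of macrophages, had 7.23, 12.1 and 12.8 CPM in HFD livers and 5.15, 5.63 and 7.15 CPM in chow livers, and rose (log2 0.86 ± 0.23 SE, edgeR adjusted p = 0.0206), the only one of 8 Kupffer cell markers past the test. Of 8 stellate cell markers the collagens Col1a1 and Col3a1 rose (log2 2.65 and 1.88, adjusted p = 0.0199 and 0.0296) and Dcn, the proteoglycan decorin, fell (log2 -0.56, adjusted p = 0.0368). Col1a1 was highest in HFD replicate 3, at 33.2 CPM, against 4.48 and 8.59 CPM in the other HFD libraries and 1.61 to 3.43 CPM in chow livers. These 4 calls were each lost without 2 or more of the libraries left out in turn, Col3a1 also with the replicate block (adjusted p = 0.0641) and Dcn with plain library totals (adjusted p = 0.117). Of the 6 adipocyte markers 2 had enough counts to be tested, and they went opposite ways. Cfd, the secreted protease adipsin, rose (log2 3.41, edgeR adjusted p = 0.00150) under each alternative run. The other had a lower mean on the HFD and did not pass. Adipoq, which was not tested, was at 0.0466 to 0.274 CPM in HFD livers and 0.108 to 0.542 CPM in chow livers. The part of other cell types in the H3K4me1 differences was not tested. In the peak list headers the HFD and chow data sit under different directory codes, and any batch that these codes stand for cannot be told apart from the diets.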

How the data were processed

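Per the submitters' processing notes, the authors used Bowtie 0.12.7, MACS 1.4.0rc2, bedtools and DESeq2 for ChIP, and TopHat 1.4.0, HTSeq and DESeq2 1.0.18 for mRNA, on build mm9. The deposited tables hold raw counts per union peak or gene. Per the file headers, peaks were called on pooled replicates against pooled IgG with a p-value limit of 1e-06, and those with a false discovery rate above 10 percent were removed. The deposited lists also give each peak's tag count, fold enrichment over local background and a score made from its p-value. The authors' deposited difference tables hold log2 fold changes and adjusted p-values.

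A region was a member if it overlapped by 1 base or more neither an H3K27ac union row nor a chow H3K4me3 peak. Counts were tested with edgeR 4.0.16 in R 4.3.3 (filterByExpr by diet, TMM, quasi-likelihood F test, two-sided, diet as the only term, Benjamini-Hochberg over each whole table, threshold 0.05), and checked on simulated data. Levels are CPM of the TMM-scaled library total, per kb where regions are compared. DESeq2 1.42.0, other scalings, no filter, a replicate block and each library left out were alternatives. Replicate numbers pair libraries in no label, and same-numbered H3K4me1 libraries deviated together at r of 0.0575, -0.144 and -0.133, so no pairing was used. With 3 against 3 libraries an exact permutation test cannot go below p = 0.1, so none was used.

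The members and gene lists were chosen with earlier results of these data known. Named regions were the 12 largest rises and 12 largest falls past the threshold with libraries apart, the 6 densest, the 3 widest, the 3 nearest to H3K27ac and the 3 non-members with least overlap; regions on chromosome 18 were counted and not named. The enzyme list was added after the files were seen. Some listed genes are counted in their lists and not reported here by name. Regions that share a call with a neighbour or an H3K27ac peak were picked after their values were seen, and the alternatives for them and for mRNA were chosen after seeing the data. No mm9 genome or annotation was used here, so no gene or sequence is given to a region, and mRNA of neighbouring genes was not analysed here.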

Additional observations from a re-analysis of the deposited data

How the results depend on the processing

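The counts of primed regions past the test depended on the libraries more than on the scaling. The 55 rises became 29 with DESeq2's Wald test and 65 with plain library totals. Leaving out 1 library at a time gave 7 to 332 rises and 16 to 318 falls, among 34 to 2036 calls over all regions. For the nearest H3K27ac peaks it gave 8 to 102 rises and 6 to 55 falls. Under these omissions the median log2 fold change of the members ran from 0.01 to 0.04, and the ratio of H3K4me1 per kb at primed over acetylated distal regions from 0.930 to 0.972 on the HFD and from 0.986 to 0.990 on chow. That chow ratio was 0.982 with means and 0.988 with medians, a move larger than the SD between chow libraries (0.00409) but not larger than their full range (0.985 to 0.993). Taking only regions with a peak of at least 10-fold enrichment left 3672 members in place of 6434. Of the 24 regions named for their size of change, 9 passed in every setting run, and in none did the direction turn; the causes were not tested.

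Replicate numbers do not pair the libraries by any label. With the replicate block 74 members rose and 93 fell, 124 of the 126 calls among them, and 359 of all 16834 regions passed. The nearest H3K27ac peaks then gave 49 up and 24 down.

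At these depths a member held a median of 177 to 230 counts per library. In simulated H3K4me1 counts of all 16834 regions, 76% of planted log2 changes of 0.5 were recovered. With planted changes of 0.5 and 1.0 together, 191 regions were called, and 7.85% of these calls were false. That share is above the false discovery rate that the adjusted p threshold is set to hold. Recovery by width was not tested.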
